A study of Mus musculus with 2 samples.

Results

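Dying cells are cleared by efferocytosis, in which a phagocyte recognises phosphatidylserine on the surface of the dying cell and engulfs it. From this process 8 genes, of 32285 in the count tables, were followed by taking the rows with their symbols: the bridging ligands Gas6, Pros1 and Mfge8, the TAM receptor kinases Axl, Mertk and Tyro3, and the receptors Timd4 and Stab1. Mononuclear cells came from quadriceps of wild-type (WT) C57BL/6J mice that received an intramuscular injection of 100 µl BaCl2 at 1.2% (w/v) to injure the muscle, and were collected 2 h or 9 h later. Both times therefore carry the injury, no uninjured muscle is among the samples analysed here, and how many animals or what ages each library drew on is not given in the sources used here. All cells were cryo-preserved and sequenced as 1 droplet library per time, in a series asking about CCL2 from fibro-adipogenic progenitors (FAPs, mesenchymal cells between muscle fibres) and monocyte entry. With 1 library per time, no difference between the times has a replicate check and no test across samples was possible; the 95% intervals below cover counting error only.

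As background, Gas6 and protein S (Pros1) bind phosphatidylserine through a vitamin K-dependent domain and at the same time bind TAM receptors, so that they bridge the dying cell and the phagocyte. Mfge8 bridges phosphatidylserine to integrins, while Timd4 (TIM-4) and Stab1 (stabilin-1) bind phosphatidylserine themselves. Mertk is best known as the TAM receptor of macrophages that clear cells at rest, Axl as one that is induced in inflammation, and Timd4 as a marker of macrophages that reside in tissues.

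After filtering there were 4900 cells at 2 h and 8147 at 9 h, with median depths of 4519 and 2327 UMIs (unique transcript molecules) per cell. Clustering without the 8 genes, and marker lists, gave 2011 FAP-like cells at 2 h and 2375 at 9 h, 315 and 242 macrophage-like, 174 and 359 monocyte-like, 261 and 502 endothelial-like, 91 and 63 tenocyte-like (tendon cells), 145 and 110 dendritic-like, 80 and 68 satellite-like (muscle stem cells), 32 and 33 pericyte-like or smooth muscle-like, and 1613 and 3260 neutrophil-like cells. All 15 FAP, 12 macrophage, 11 endothelial and 7 satellite markers were each found in at least 10% of the cells of their class at both times, as were 9 of 10 monocyte, 8 of 11 dendritic and 12 of 15 neutrophil markers. Of the 7 tenocyte markers, all were found so at 2 h and 5 at 9 h. Levels are in CPM, a gene's UMIs divided by the UMIs of all cells of a class and scaled to 1000000, so a level averages cells with much and with little of the RNA. A ratio was computed in classes with at least 50 cells in each library, and a gene counted as measured there at 100 UMIs or more over both libraries. A gene was taken as past the fold when its log2 ratio of 9 h to 2 h, on the log2(CPM + 10) scale, was at least 1 in either direction.

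The 8 genes lie apart in the mouse genome (mm10). Gas6 is at chr8:13465374-13494490 on the minus strand with 15 exons in its principal transcript, Pros1 at chr16:62854307-62929346 on the plus strand with 15 exons, and Mfge8 at chr7:79133768-79149060 on the minus strand with 10 exons. Axl is on the same chromosome as Mfge8, at chr7:25757273-25788705 (minus strand, 20 exons). Mertk is at chr2:128698956-128802894 and Tyro3 at chr2:119797733-119818104, both on the plus strand with 19 exons. Timd4 is at chr11:46810800-46844332 (plus strand, 9 exons) and Stab1 at chr14:31139013-31168641 (minus strand, 69 exons). The annotation has a gene on the opposite strand overlapping Gas6 (Tmem255b), Mertk (Gm14011) and Stab1 (Nt5dc2), and the sources used here do not say how the counting treated strand.

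The sequences just before the RefSeq start sites of Gas6 and Mfge8 are shown because these ligands were both lower past the fold at 9 h in FAP-like and tenocyte-like cells, and that of Axl because it differed from Gas6 among FAP-like cells. Each is 250 bases, 5′ to 3′ on the gene's strand, in GRCm38.p6 from RefSeq: Gas6 at chr8:13494536-13494785 (minus), Mfge8 at chr7:79149061-79149310 (minus) and Axl at chr7:25788734-25788983 (minus). Capitals mark the GC box GGGCGG or its reverse complement.
Gas6: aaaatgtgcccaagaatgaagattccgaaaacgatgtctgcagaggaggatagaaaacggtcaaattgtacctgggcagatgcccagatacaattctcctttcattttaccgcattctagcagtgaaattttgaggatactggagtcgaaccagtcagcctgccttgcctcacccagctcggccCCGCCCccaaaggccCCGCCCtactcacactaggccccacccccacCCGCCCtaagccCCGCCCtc
Mfge8: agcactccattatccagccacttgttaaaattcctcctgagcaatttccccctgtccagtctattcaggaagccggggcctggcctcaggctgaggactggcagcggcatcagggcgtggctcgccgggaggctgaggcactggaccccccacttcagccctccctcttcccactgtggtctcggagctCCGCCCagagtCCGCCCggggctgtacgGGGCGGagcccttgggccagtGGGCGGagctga
Axl: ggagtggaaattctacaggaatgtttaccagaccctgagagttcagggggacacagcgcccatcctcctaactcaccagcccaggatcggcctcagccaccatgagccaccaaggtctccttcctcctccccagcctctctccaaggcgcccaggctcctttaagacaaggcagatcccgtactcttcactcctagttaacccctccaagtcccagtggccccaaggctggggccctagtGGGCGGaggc
Gas6 and Mfge8 each held 4 GC boxes on the 2 strands together, Axl 1, Pros1 5, Mertk 3 and Tyro3 3, and Timd4 and Stab1 0. Of 32851 such stretches in the RefSeq table, 32.7% held at least 1 and 8.47% held 3 or more. Neither an AP-1 site (TGANTCA, in 6.75% of stretches) nor an NF-kB site (GGG, any 2 bases, TTTCC, in 1.41%) was found in any of the 8, searched on both strands; the motifs do not overlap one another. A match or its absence describes these letters only.

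Gas6 RNA was spread over several structural and phagocytic classes at 2 h and was lower in each measured class at 9 h. It was highest in tenocyte-like cells, with 630 CPM (95% interval 577 to 685, 531 UMIs) at 2 h and 199 CPM (161 to 243) at 9 h; paired values below keep this order. Macrophage-like cells had 209 (191 to 229) and 32.4 (24.0 to 42.7), endothelial-like cells 193 (166 to 223) and 31.7 (23.4 to 42.0), and FAP-like cells 132 (127 to 138) and 46.4 (43.4 to 49.5). As a class average, FAP-like cells thus lay under both at 2 h and above both at 9 h, with intervals apart. This order does not hold for each FAP-like cluster or for each choice of macrophage-like cells. At 9 h the clusters led by Cxcl5 and by Krtdap, given below, had lower levels than both classes. At 2 h the interval of the Col15a1-led cluster, also given below, overlapped that of endothelial-like cells. Macrophage-like cells with a UMI of Lyve1, Folr2 or Cd163 had a higher level than the FAP-like average at 9 h. At the lowest clustering resolution, described at the end, the larger macrophage-like cluster lay within the FAP-like interval at 2 h. The intervals of macrophage-like and endothelial-like cells overlapped at each time, so their order is not set. Per class, the 9 h level was 6.47-fold lower in macrophage-like cells (4.83 to 8.84), 6.10-fold lower in endothelial-like cells (4.42 to 8.56), 3.16-fold lower in tenocyte-like cells (2.54 to 3.98) and 2.85-fold lower in FAP-like cells (2.63 to 3.08). All 4 were past the fold, against 7.76%, 8.31%, 22.0% and 9.3% of the measured genes that were lower past the fold in macrophage-like, endothelial-like, tenocyte-like and FAP-like cells. One tenocyte-like cell carried 70 of the 531 UMIs at 2 h, and without it the level was 559 CPM. Satellite-like cells held 103 and 69.9 CPM of Gas6 on 36 and 18 UMIs, too few to count as measured, and monocyte-like cells 2 UMIs at 2 h and 1 UMI at 9 h. FAP-like cells held most Gas6 molecules, 62.5% at 2 h and 79.2% at 9 h. They were 41.0% and 29.2% of the cells, and held 16129941 of the 27598413 UMIs of all genes at 2 h and 19572560 of 35127600 at 9 h. The macrophage-like share of Gas6 went from 13.6% to 4.36%, while the class went from 6.43% to 2.97% of cells and from 2210181 to 1544091 UMIs. Shares of a gene's UMIs given below have the same background.

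The share of cells with a Gas6 UMI gave the same order between times. After thinning each cell to 1000 UMIs, 19.2% of macrophage-like cells at 2 h (14.9 to 24.0%) and 3.83% at 9 h (1.77 to 7.15%) had one; without thinning these were 53.0% and 12.4%, at median depths of 5782 and 5594 UMIs. In neutrophil-like cells, which carried almost none of the RNA, the thinned shares were 0.197% and 0.0976% (median depths 2017 and 1742). FAP RNA can enter droplets of other cells, and Dcn, a proteoglycan of FAPs, served to scale it: macrophage-like cells had 7.01% of the FAP-like Dcn level at 2 h, which as carry-over would give 9.26 CPM of Gas6, beside the 209 CPM measured. The 15 FAP markers summed to 4941 CPM in macrophage-like cells at 2 h, with 8 of them in at least 10% of cells, and to 1212 CPM at 9 h, with 2; carry-over estimates are given beside the values below where they are large. Tenocyte-like cells express the FAP markers themselves, at a sum of 62502 and 26237 CPM, close to the 66220 and 26563 CPM of FAP-like cells, so carry-over could not be scaled there.

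**Figure D1:**
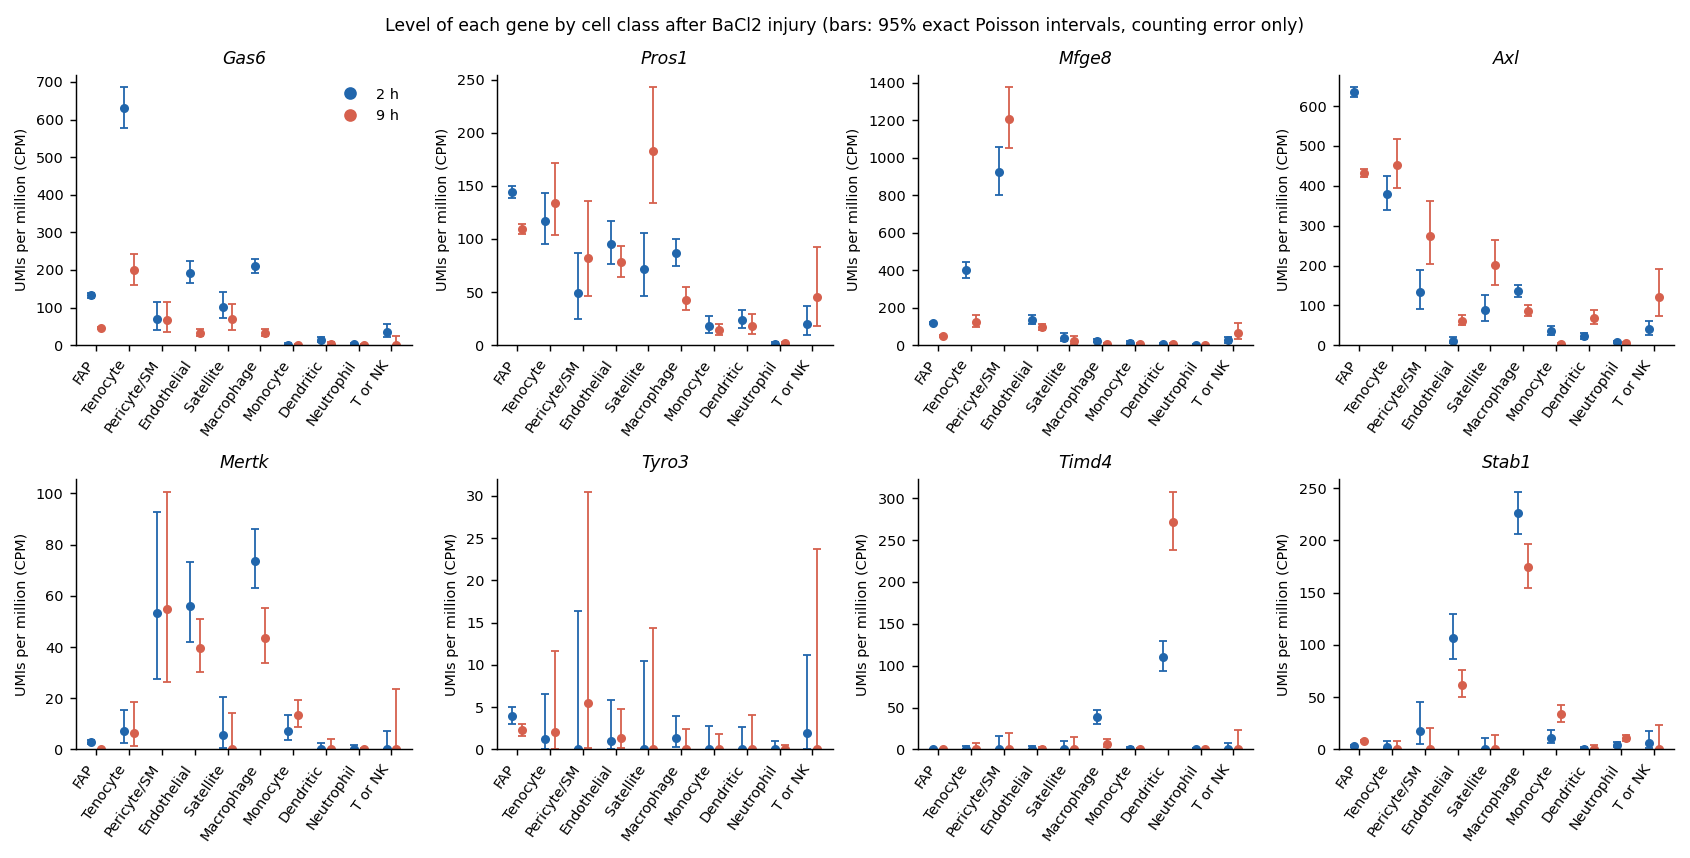
Level in CPM (linear axes that differ between panels) of each of the 8 genes in 10 cell classes at 2 h (blue) and 9 h (red); points are 1 library each and bars are 95% exact Poisson intervals. Gas6 points at 9 h lie under those at 2 h in FAP-like, tenocyte-like, endothelial-like and macrophage-like cells, Mfge8 is highest in pericyte-like or smooth muscle-like cells, and Timd4 stands out in dendritic-like cells.

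Within FAP-like cells, Gas6 and Axl ran opposite to each other across clusters. At 2 h, the cluster led by Col15a1 (1427 cells) had 177 CPM of Gas6 (169 to 184) and the cluster led by Sema3c and Pi16 (568 cells), markers of progenitors of the outer connective tissue, 29.4 CPM (24.8 to 34.7). Axl was 500 CPM (487 to 514) in the first and 945 CPM (918 to 973) in the second. At 9 h, the cluster led by Saa1 (449 cells) had 175 CPM of Gas6 (161 to 190), the cluster led by Cxcl5 and Ccl2 (1213 cells) 24.0 CPM (21.0 to 27.3), and the cluster led by Krtdap with Pi16 (674 cells) 10.3 CPM (7.90 to 13.1). Axl in those was 284, 410 and 546 CPM. So at each time the cluster with the highest Gas6 had the lowest Axl, and none of these intervals overlapped within a time. Detection in single FAP-like cells cannot show whether this order holds within cells, since most had an Axl UMI with or without Gas6. At 2 h an Axl UMI was found in 92.3% of cells with a Gas6 UMI and 90.0% of cells without (median depths 8699 and 7369 UMIs), and at 9 h in 84.2% and 83.2%. Pros1 went with Gas6 at its high end, at 164 CPM in the Col15a1-led and 177 CPM in the Saa1-led cluster against 97.2, 86.2 and 111 CPM in the others.

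The Saa1-led cluster at 9 h, with 175 CPM, was level with the Col15a1-led cluster at 2 h, while the other 9 h clusters lay far below it. Clusters of the 2 times hold almost no cells of the other time (33 of 1460 cells in the Col15a1-led cluster were from 9 h, with 182 CPM of Gas6), so a change within a kind of FAP and a change in which kinds were captured cannot be told apart. Without the Cxcl5-led and Saa1-led clusters, which have no FAP marker among their 10 leading genes, the log2 ratio of Gas6 was -2.56 instead of -1.33.

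**Figure D2:**
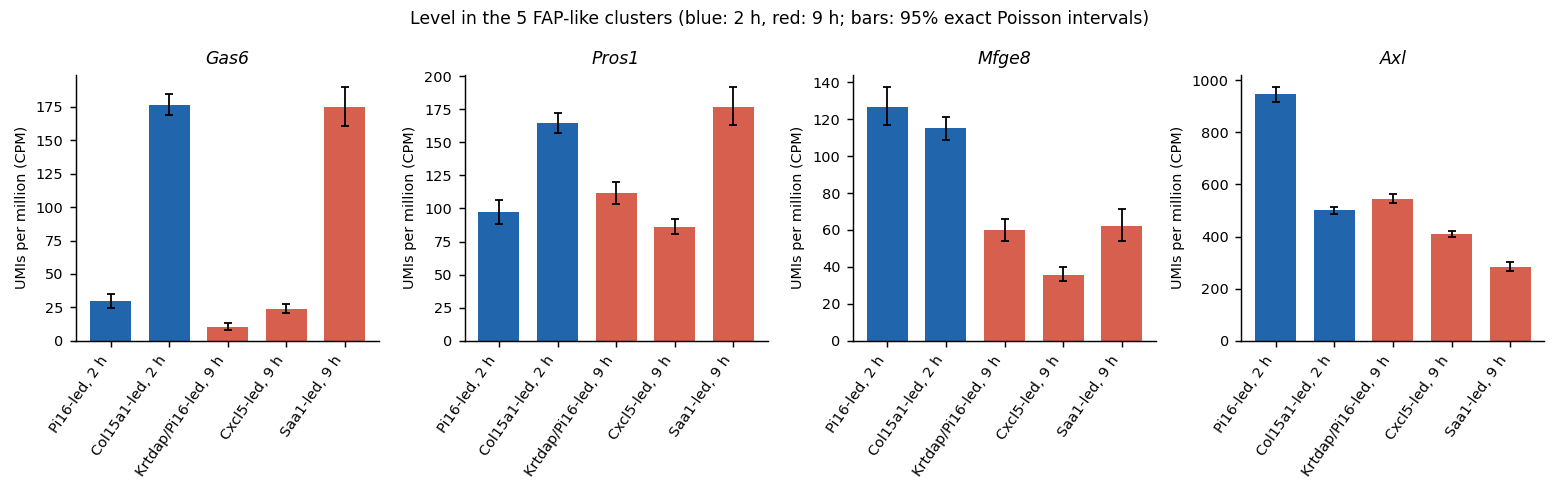
Level in CPM (linear axes from 0) of Gas6, Pros1, Mfge8 and Axl in the 5 FAP-like clusters, with 2 h clusters in blue and 9 h clusters in red; bars are summed levels of 1 library and error bars 95% exact Poisson intervals. Gas6 is high in the Col15a1-led and Saa1-led clusters (177 and 175 CPM), where Axl is lowest for its time (500 and 284 CPM).

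Pros1, the gene of protein S, was the steadier TAM ligand. FAP-like cells had 144 CPM (138 to 150) and 110 CPM (105 to 114) and held 82.2% and 84.0% of its UMIs. Tenocyte-like cells had 117 and 134 CPM and endothelial-like cells 94.97 and 77.9, with intervals of the ratio that hold 1 in both. Macrophage-like cells had 86.9 CPM (75.0 to 100) and 42.7 CPM (33.1 to 54.4), 2.03-fold lower (1.53 to 2.73), which on the log2(CPM + 10) scale is -0.88 and not past the fold. Satellite-like cells went the other way, from 71.3 CPM (25 UMIs) to 183 CPM (47 UMIs), a ratio of 2.56 (1.54 to 4.34) on too few UMIs to count as measured. The highest Pros1 levels were in the glial-like cells, at 332 CPM (171 to 579) and 392 CPM (262 to 563), which rest on 11 and 18 cells.

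Mfge8, whose product links dying cells to integrins, was highest in pericyte-like or smooth muscle-like cells. Their levels were 921 CPM (800 to 1055, 32 cells) and 1204 CPM (1050 to 1374, 33 cells), too few cells for a ratio. At 9 h 1 cell held 51 of the 220 UMIs, and without it the level was 962 CPM. All 10 markers of this class were found in at least 10% of its cells at both times, summing to 14569 and 7601 CPM. So were 11 and 13 of the 15 FAP markers, summing to 5314 and 11585.5 CPM, and 6 and 7 of 11 endothelial markers. The part of such RNA in the Mfge8 levels was not tested. Tenocyte-like cells had 400 and 126 CPM, 3.18-fold lower at 9 h (2.41 to 4.25), and FAP-like cells 118 and 48.5 CPM, 2.44-fold lower (2.26 to 2.64), both past the fold. Endothelial-like cells had 136 (114 to 162) and 98.3 CPM (83.2 to 115), 1.38-fold lower (1.09 to 1.76), which is not past the fold. All 3 9 h clusters of FAP-like cells (35.8 to 62.3 CPM) lay under both 2 h clusters (115 and 127 CPM). For Mfge8, other than for Gas6, no 9 h cluster was thus level with a 2 h cluster. Macrophage-like cells had 23.5 CPM at 2 h, and 5.83 CPM on 9 UMIs at 9 h. Their Dcn was 1185 and 357 CPM, beside 16922 and 8058 CPM in FAP-like cells. The part of FAP carry-over in these low Mfge8 values was not tested.

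**Figure D3:**
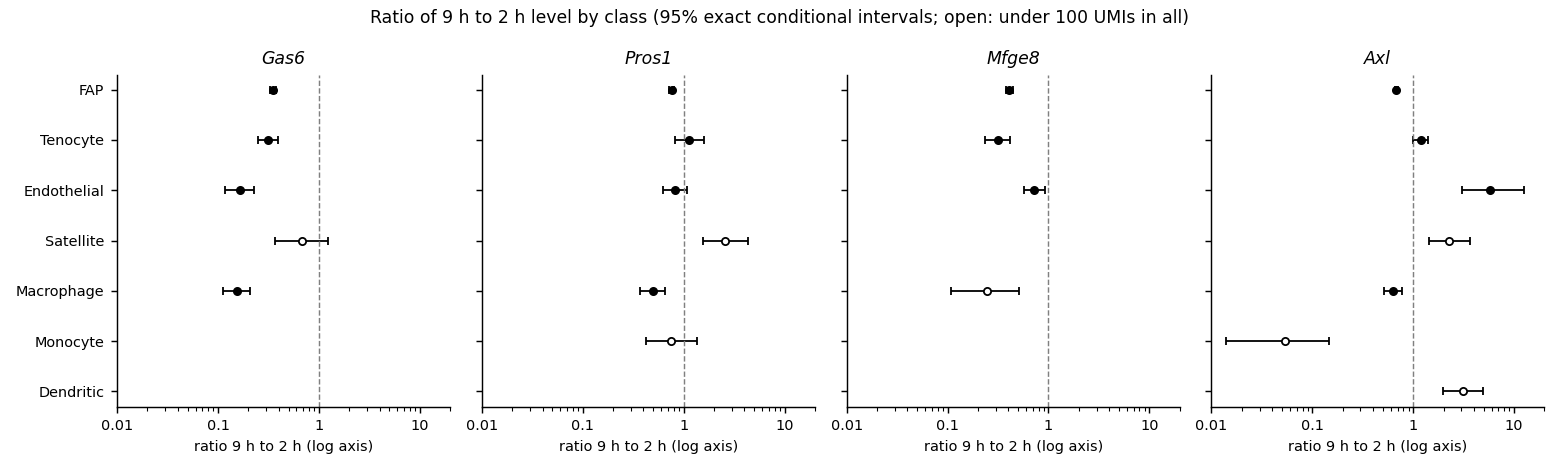
Ratio of the 9 h to the 2 h level (log axis, the same in each panel) of Gas6, Pros1, Mfge8 and Axl in 7 cell classes, for classes with at least 50 UMIs of the gene; bars are 95% exact conditional intervals, filled points have at least 100 UMIs and the dashed line marks a ratio of 1. Gas6 and Mfge8 lie under 1 in each filled class, while Axl lies on both sides.

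Axl was the TAM receptor of the FAPs. FAP-like cells held 92.6% of all Axl UMIs at 2 h and 92.4% at 9 h, at 635 CPM (622 to 647) and 432 CPM (423 to 442), 1.47-fold lower at 9 h (1.43 to 1.51) and not past the fold. In tenocyte-like cells Axl was 381 CPM (340 to 425) and 453 CPM (394 to 517), so FAP-like cells stood above them at 2 h and overlapped them at 9 h. Macrophage-like cells had 136 CPM (121 to 152) and 86.1 CPM (72.1 to 102), of which FAP carry-over by Dcn would give 44.5 and 19.2 CPM. Monocyte-like cells had 36.2 CPM on 49 UMIs at 2 h, with 14.1 CPM from carry-over, and 1.92 CPM on 4 UMIs at 9 h, where carry-over alone would give 1.88 CPM. T-like or NK-like cells had less Axl (40.1 and 122 CPM) than Dcn carry-over would give (85.1 and 132 CPM), which is a level at background. Satellite-like cells had 88.4 CPM (31 UMIs) and 202 CPM (52 UMIs), with carry-over of 46.6 and 1.87 CPM. The ratio was 2.28 (1.44 to 3.69), on too few UMIs to count as measured.

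In endothelial-like cells Axl was 10.6 CPM (10 UMIs) at 2 h and 61.4 CPM (93 UMIs) at 9 h, a ratio of 5.81 (3.02 to 12.5), past the fold where 7.89% of measured genes were higher. Several other measurements differ from this ratio. Dcn in this class went from 319 to 1164 CPM, which as carry-over would give 11.95 and 62.4 CPM of Axl, as much as was measured at each time. In endothelial-like cells with no Dcn UMI, Axl was 8.42 CPM (6 UMIs) and 6.18 CPM (7 UMIs), a log2 ratio of -0.19. At the finer clustering resolution of 2 it was 10.6 and 9.45 CPM, and 122 cells of 9 h fell in an unnamed cluster with 240 CPM of Axl. That cluster was led by endothelial genes such as Cdh5 but scored highest, and almost alike, for FAP and neutrophil markers (0.149 and 0.144); the doublet caller marked too few cells in either library to tell whether its droplets held more than 1 cell. The fall of Gas6 in the same cells was as large in cells with no Dcn UMI, at 204 and 31.8 CPM.

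**Figure D4:**
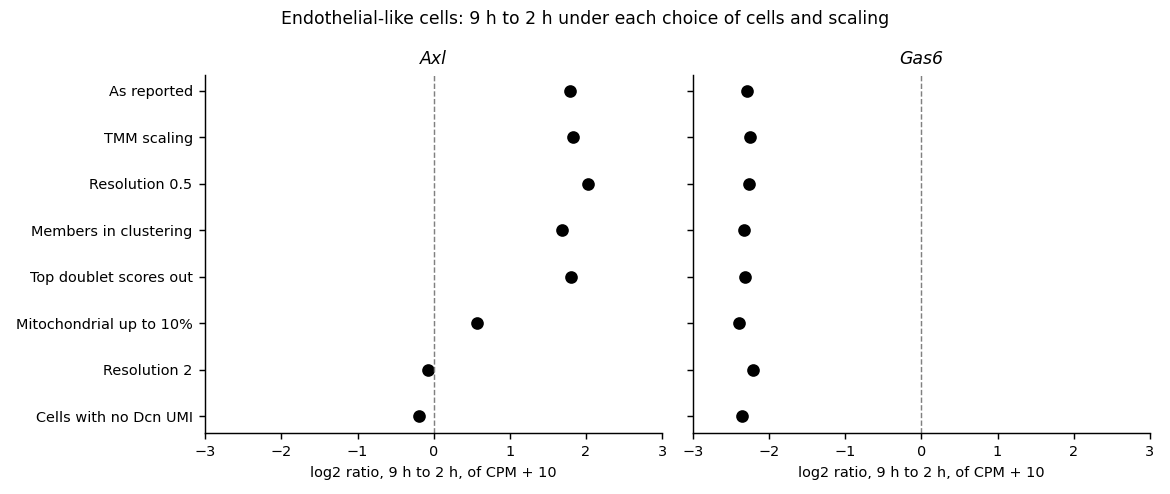
Log2 ratio of 9 h to 2 h (on CPM + 10) for Axl and Gas6 in endothelial-like cells under 8 choices of cells or scaling, 1 point each from 1 library per time. Axl runs from 1.80 as reported to -0.082 at resolution 2 and -0.19 in cells with no Dcn UMI, while Gas6 stays between -2.39 and -2.21.

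Mertk, the receptor kinase of resting phagocytes, was low in these libraries (300 UMIs at 2 h and 178 at 9 h). Macrophage-like cells had 73.7 CPM (62.9 to 86.0) and 43.4 CPM (33.6 to 55.1), 1.70-fold lower at 9 h (1.27 to 2.29) and not past the fold. They held 54.3% of all Mertk UMIs at 2 h and 37.6% at 9 h. Endothelial-like cells had 55.9 and 39.6 CPM and those scored as pericytes or smooth muscle 53.1 and 54.7, and the intervals of these and of macrophage-like cells overlapped at each time. Glial-like cells had the highest levels, 194 CPM (77.8 to 399) and 94.6 CPM (38.0 to 195), on 7 UMIs at each time. FAP-like cells had 46 UMIs at 2 h (2.85 CPM) and 2 UMIs at 9 h, and dendritic-like cells none at either time, where 3 counts would be 2.20 and 3.36 CPM. Tyro3, the TAM receptor best known from the nervous system, gave 70 and 48 UMIs in all, 91.4% and 91.7% of them in FAP-like cells, at 3.97 and 2.25 CPM. In no other class did Tyro3 reach 10 UMIs.

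Stab1, a scavenger receptor, marked macrophage-like and endothelial-like cells. Macrophage-like cells had 226 CPM (206 to 246) and 174 CPM (154 to 196), and endothelial-like cells 107 (86.8 to 130) and 62.0 (50.1 to 75.9), neither past the fold. The other measured class, FAP-like cells, had only 3.04 CPM (49 UMIs) and 8.17 CPM (160 UMIs). Monocyte-like cells had 11.1 CPM (15 UMIs) and 33.7 CPM (70 UMIs), of which macrophage carry-over by C1qa would give 1.41 and 2.68 CPM. The ratio was 3.04 (1.72 to 5.72), on too few UMIs to count as measured. Dendritic-like cells had 0 UMIs of Stab1 at both times.

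Macrophage-like cells were of more than 1 kind, and Gas6, Stab1, Mertk and Timd4 lay mostly in one of them at 2 h. Of the 315 cells at 2 h, 238 had a UMI of Lyve1, Folr2 or Cd163, genes of resident macrophages, and these had 266 CPM of Gas6 (241 to 293), 295 CPM of Stab1 (269 to 323) and 90.6 CPM of Mertk (76.4 to 107). The other 77 cells had 60.8 CPM of Gas6, 44.3 CPM of Stab1 and 29.6 CPM of Mertk, at a like depth (median 5813 and 5768 UMIs). Axl was the reverse, at 119 CPM (103 to 137) in the first and 179 CPM (147 to 216) in the second, with overlapping intervals at 9 h (82.5 and 90.6 CPM). All 85 Timd4 UMIs of macrophage-like cells at 2 h were in the first. The intervals of Pros1 (89.9 and 78.8 CPM) and of Mfge8 (28.1 and 11.5 CPM) overlapped between them at 2 h, and Tyro3, with 3 UMIs, could not be compared. At 9 h the 149 cells with a UMI of those genes had 263 CPM of Stab1 and 55.8 CPM of Gas6, and the other 93 cells 62.9 CPM of Stab1 and 2 UMIs of Gas6. Stab1 in the Lyve1, Folr2 or Cd163 cells thus overlapped between times (295 and 263 CPM), while the log2 ratio of Gas6 in them was -2.07. In single macrophage-like cells of 2 h, 73.4% of cells with a Stab1 UMI also had a Gas6 UMI, against 33.5% of cells without one, although the cells with Stab1 were not deeper (medians 5495.5 and 6591 UMIs).

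**Figure D5:**
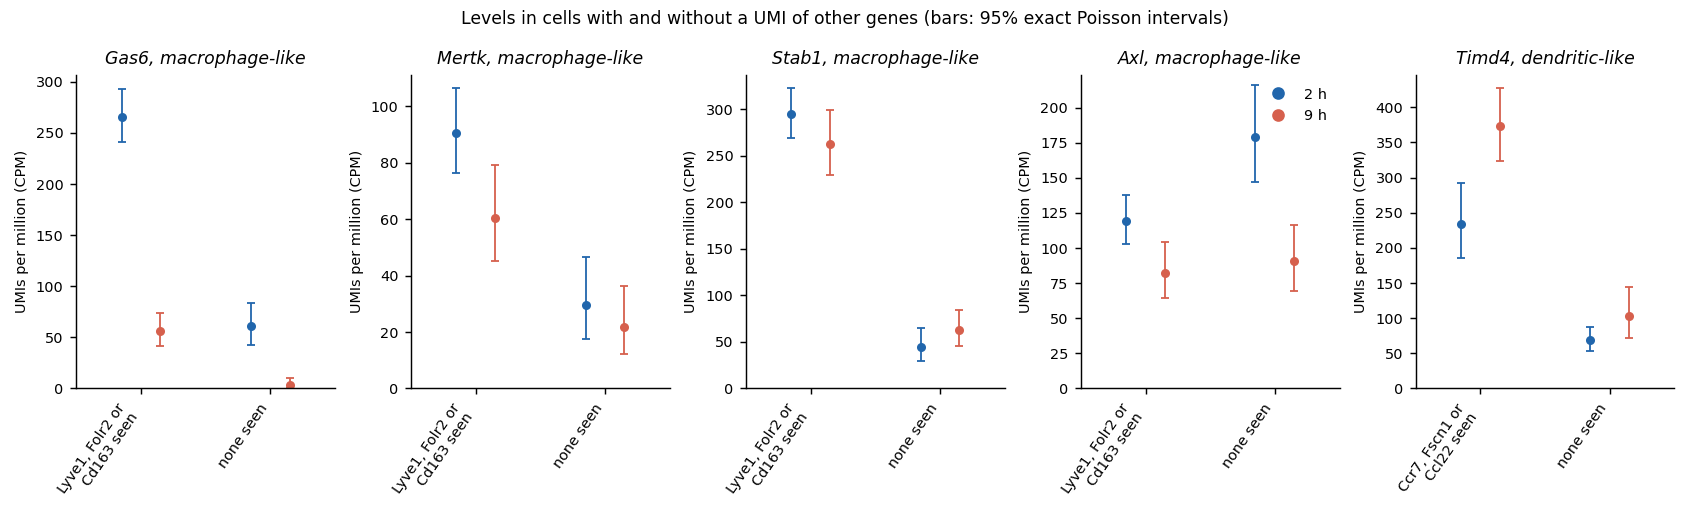
Level in CPM (linear axes from 0) at 2 h (blue) and 9 h (red) of Gas6, Mertk, Stab1 and Axl in macrophage-like cells with and without a UMI of Lyve1, Folr2 or Cd163, and of Timd4 in dendritic-like cells with and without a UMI of Ccr7, Fscn1 or Ccl22; bars are 95% exact Poisson intervals. Gas6, Mertk and Stab1 are higher on the left of each panel at 2 h, and Axl is not.

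Timd4, known for resident macrophages, was found mostly in dendritic-like cells. They held 62.0% of its UMIs at 2 h and 95.3% at 9 h, at 110 CPM (93.3 to 129, 150 UMIs) and 271 CPM (238 to 308, 242 UMIs), a ratio of 2.46 (2.00 to 3.04). Timd4 was the only one of the 8 genes measured in this class and it was past the fold, against 5.69% of measured genes that were higher and 5.66% that were lower. In macrophage-like cells it was 38.5 CPM (85 UMIs) and 7.12 CPM (11 UMIs), 5.40-fold lower (2.87 to 11.2) on too few UMIs to count as measured. Every other class of at least 50 cells in both libraries had at most 4 UMIs at a time.

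The makeup of the dendritic-like cells moved with this value. Cd209a, a lectin of monocyte-derived dendritic cells, went from 1180 to 340 CPM, and Ccr7, the receptor that takes mature dendritic cells to lymph nodes, from 81.6 to 1622 CPM. Dendritic-like cells with a UMI of Ccr7, Fscn1 or Ccl22 numbered 33 of 145 at 2 h and 76 of 110 at 9 h, with 234 CPM (186 to 292) and 373 CPM (324 to 428) of Timd4, against 68.7 and 104 CPM in the rest. In the Cd209a-led cluster at resolution 2, Timd4 was 113 CPM at 2 h and 136 CPM at 9 h, a log2 ratio of 0.24 and not past the fold, while the cluster led by Ccl22 and Ccr7, with 61 cells at 9 h and 2 at 2 h, had 408 CPM. Timd4 came from few cells: 22.1% of dendritic-like cells at 2 h and 37.3% at 9 h had a UMI, and the cell with most held 18 of the 150 UMIs at 2 h and 27 of the 242 at 9 h. Thinned to 1000 UMIs these shares were 9.22% (5.0 to 15.3%) and 7.55% (3.31 to 14.3%), which is against the order of the levels, so no order is read from the shares. Axl in dendritic-like cells was 22.0 CPM (30 UMIs) and 68.4 CPM (61 UMIs), with 6.92 and 34.8 CPM from FAP carry-over.

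In all, 6 of the 8 genes were measured in FAP-like cells, of which 2 were lower past the fold and 0 higher (9.3% and 7.38% of all measured genes), with a median log2 ratio of -0.45. In endothelial-like cells 6 were measured, with 1 lower and 1 higher, Gas6 and Axl (8.31% and 7.89% of all measured genes). In macrophage-like cells 5 were measured, with 1 lower and 0 higher (7.76% and 4.19%), and in tenocyte-like cells 4, with 2 lower and 0 higher (22.0% and 15.2%). The median log2 ratio of all measured genes was 0.00 in FAP-like, 0.05 in endothelial-like, 0.02 in macrophage-like and -0.02 in tenocyte-like cells. None was measured in monocyte-like, satellite-like or neutrophil-like cells.

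The other genes of efferocytosis were read from 9 lists of 82 genes. In FAP-like cells 59 were measured, of which 3 were higher and 13 lower at 9 h (5.08% and 22.0%, against 7.38% and 9.3% of all measured genes), with a median log2 ratio of -0.27. Vkorc1, which recycles the vitamin K needed to make Gas6 and protein S active, went from 148 to 42.3 CPM in FAP-like cells, 3.50-fold lower (3.23 to 3.79), and Furin, a protease that cuts proproteins, from 49.6 to 120 CPM. Itgb5, a subunit of an integrin that binds Mfge8, went from 121 to 28.5 CPM, 4.26-fold lower. Cd47, the signal against being eaten, went from 549 to 177 CPM, and the phosphatidylserine-binding Anxa1 from 798 to 253 CPM. Plscr1, a phospholipid scramblase, went from 51.8 to 12.9 CPM. The 3 higher past the fold were Furin, the secreted opsonin Ptx3 (1550 to 6799 CPM) and Cd14, a co-receptor for lipopolysaccharide (61.4 to 143 CPM). Cd24a (15.3 to 40.1 CPM) and Cd300lf (9.67 to 28.5 CPM) had larger CPM ratios than Furin and Cd14, 2.62 and 2.94 against 2.42 and 2.33, but at these low levels were not past the fold on the log2(CPM + 10) scale.

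In macrophage-like cells 53 were measured, 6 higher and 7 lower (11.3% and 13.2%, against 4.19% and 7.76% of all measured genes), with a median of 0.03. The scavenger receptor Cd36 went from 422 to 1827 CPM, the macrophage scavenger receptor Msr1 from 98.2 to 374 CPM, and the bridging protein thrombospondin (Thbs1) from 587 to 2243 CPM. Lgals3, a galactose-binding lectin, went from 685 to 1830 CPM. The fractalkine receptor Cx3cr1 went from 47.1 to 5.18 CPM. The engulfment genes Dock1, Dock2 and Rac2, which drive actin around the prey, went from 42.5 to 8.42, 151 to 63.5 and 147 to 63.5 CPM. The 10 monocyte markers in macrophage-like cells moved at the same time, from a sum of 1286 to 2324 CPM, with 2 and 5 of them in at least 10% of cells, and their part in these values, and in the member genes of this class, was not tested. Msr1 (149 and 456 CPM) and Thbs1 (3565 and 10077 CPM) were higher in monocyte-like than in macrophage-like cells. For the list genes above, the FAP carry-over scaled by Dcn was at most 204 CPM (Thbs1 at 2 h) and, for all but Thbs1, at most 3.93 CPM. Among the same genes past the fold, Ptx3 (112 to 349 CPM) and complement C3 (205 to 36.9 CPM) were near the carry-over estimates of 109 and 302 CPM for Ptx3 and 157 and 44.8 CPM for C3. C3 at 2 h and Ptx3 at 9 h lay above their estimates, and C3 at 9 h under its own. The part of FAP RNA in these macrophage-like values was not tested. In monocyte-like cells 44 were measured, 5 higher and 7 lower (against 4.44% and 6.25% of all measured genes), with a median of 0.11. Among them Cd36 (56.1 to 196 CPM), Msr1 (149 to 456 CPM), Thbs1 (3565 to 10077 CPM), Cd24a (76.0 to 215 CPM) and Abca1, a cholesterol exporter (59.1 to 153 CPM), were higher past the fold. Neutrophil markers in these cells moved alongside, from a sum of 4023 to 8040 CPM, with 8 and 11 of 15 in at least 10% of cells, and S100a8 from 1386 to 3075 CPM. Neutrophil-like cells themselves had 943 and 1808 CPM of Cd24a, 8211 and 8847 CPM of Thbs1 and 75.8 and 274 CPM of Abca1, but at most 11.3 CPM of Cd36 and 1.78 CPM of Msr1; the part of neutrophil RNA in the monocyte-like values was not tested. Ptx3 (162 to 39.0 CPM), Anxa1 (497 to 179 CPM), Cd300a (225 to 80.3 CPM), Trem2 (63.5 to 20.2 CPM) and Dock2 (204 to 78.4 CPM) were lower. Carry-over of Ptx3 into monocyte-like cells would give 34.4 and 29.6 CPM, most of the 9 h level, and that of Anxa1 17.7 and 1.10 CPM.

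Genes with levels most like those of a member were sought over 17 groups, a class at 1 time each, among 3937 genes, as a description: groups of 1 library share its depth and its free RNA, and groups are not replicates. Pericyte-like, glial-like and B-like cells, and T-like or NK-like cells at 9 h, were too few to enter. Nearest to Gas6 were Maged1 (Pearson r 0.91), Fkbp9 and Sparc (0.88), Dlgap4 and Ntn1. Axl was nearest to Prrx1 (r 0.93), a transcription factor of limb mesenchyme, then Serping1, Ddr2, Loxl1 and Sod3, all highest in FAP-like or tenocyte-like cells. For Mfge8 they were Lamb2 and Sparc (both 0.96), Pkd2, Cdkn1c and Igfbp7, and for Pros1 Lrrc58, Stub1, Slc29a1, Mrfap1 and Nop58 (0.93 to 0.92). Timd4 was nearest to Cd40 and Kmo (both 0.95), Kdm4a, Batf3 and Tbc1d4, all highest in dendritic-like cells at 9 h, and Stab1 to Ednrb (0.93), Lyve1, Cd38, Slc28a2 and Rab5c. Between members, r was 0.92 for Stab1 and Mertk, 0.85 for Gas6 and Mfge8, 0.83 for Gas6 and Pros1, 0.67 for Gas6 and Axl and -0.08 for Axl and Mertk. The value for Stab1 and Mertk leaves out glial-like cells, which had the highest Mertk levels and 0 UMIs of Stab1 at both times. It also leaves out pericyte-like cells, with 53.1 and 54.7 CPM of Mertk and 17.7 and 0 CPM of Stab1.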

How the data were processed

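UMI counts per gene and barcode, as deposited, were made by the authors using Cell Ranger 5.0.0 and the mm10 genome (per the submitters' processing notes); the sources used here name no annotation release or batch. Cells with under 200 genes, under 500 UMIs or over 20% mitochondrial UMIs were removed, which left 4900 of 5729 and 8147 of 8790 barcodes; 12 barcode sequences occurred in both libraries. Scrublet called 6 and 0 doublets, too few to rely on, so none were removed. Scanpy 1.11.5 clustered both libraries together (2000 variable genes without the 8 genes, 30 components, 15 neighbours, Leiden resolution 1). A cluster took the name of the best of 20 marker lists if at least 3 markers were each found in 10% of its cells, its marker score reached 0.1, and among its 10 leading genes no other list had more markers. A cluster of 18 and 1076 cells that scored as neutrophil stayed unnamed, since the monocyte marker F10 was among its leading genes.

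Levels carry exact Poisson, shares exact Clopper-Pearson and ratios exact conditional binomial 95% intervals, which treat UMIs as independent and leave out the spread between cells and animals. Zeros were set against 3 counts, and 10 CPM was added before log2 ratios. Carry-over of a gene from FAP-like cells into a class is its FAP-like level times the class's Dcn level as a share of the FAP-like Dcn level. On simulated Poisson counts at FAP depth (10545 genes), 67.5% of 200 genes changed by 4-fold passed the fold, since the added CPM hold back low genes. Intervals held the true ratio for 95.3% of genes there. That share follows from the intervals assuming such counts, so it cannot show their coverage for real UMIs, which can be concentrated in single cells.

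The 8 genes, the 9 lists of 82 genes and the marker lists were chosen with earlier results of these data known. All 8 genes were described; named list genes are the 5 highest and 5 lowest log2 ratios in FAP-like, monocyte-like and macrophage-like cells, and like genes are the 5 with the highest r for each member of at least 100 CPM in a group, without mitochondrial, ribosomal, haemoglobin and unnamed gene models. The carry-over estimates for list genes and the splits by other genes were chosen after values were seen. Positions are from GENCODE M21, which matched 32158 of 32285 identifiers (99.6%). TMM scaling used edgeR 4.0.16.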

Additional observations from a re-analysis of the deposited data

Results flagged for a closer look

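A member higher at 9 h in 1 class and lower in another, with both 95% counting intervals apart from a ratio of 1 and at least 50 UMIs in each, is listed here with its ratio of 9 h to 2 h; with 1 library per time, none of these differences between classes was tested. Pros1 had 2.56 in satellite-like cells, against 0.761 in FAP-like and 0.492 in macrophage-like cells. For Axl the ratio was 3.10 in dendritic-like, 5.81 in endothelial-like and 2.28 in satellite-like cells, against 0.681 in FAP-like, 0.635 in macrophage-like and 0.0532 in monocyte-like cells. The endothelial-like levels were near what FAP carry-over by Dcn would give, and so was that of monocyte-like cells at 9 h (1.92 CPM on 4 UMIs, beside an estimate of 1.88 CPM). Timd4 had 2.46 in dendritic-like against 0.185 in macrophage-like cells, beside the change in Cd209a and Ccr7 of the dendritic-like cells. Stab1 had 2.69 in FAP-like, 3.04 in monocyte-like and 2.33 in neutrophil-like cells, against 0.582 in endothelial-like and 0.772 in macrophage-like cells; its FAP-like and neutrophil-like levels were at most 10.7 CPM.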

How the results depend on the processing

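Of 59 values of the 8 ratios past the fold under other choices, 49 stayed within the counting interval of the reported value. Axl in endothelial-like cells did not hold: its log2 ratio of 1.80 became -0.082 at resolution 2 and -0.19 in cells with no Dcn UMI (a choice added after seeing the data), and 0.57 with at most 10% mitochondrial UMIs. Gas6 in FAP-like cells (-1.33) was -1.49 with a pseudocount of 1 CPM, -1.22 with TMM scaling and -2.56 without the Cxcl5-led and Saa1-led clusters; Mfge8 there (-1.13) was -1.27, -1.01 and -0.86 in the same order, the last not past the fold. Timd4 in dendritic-like cells (1.23) was 0.24 in the Cd209a-led cluster alone, also added later. It was not run at the resolutions of 0.5 and 2, which left under 50 dendritic-like cells in a library. At 0.5 no cluster was named dendritic, and the macrophage-like cluster held 459 and 352 cells, with H2-Aa and Cd74 among its leading genes. At 2 the Cd209a-led cluster stayed unnamed, with scores of 0.371 for plasmacytoid and 0.287 for dendritic markers. Gas6 in macrophage-like, endothelial-like and tenocyte-like cells stayed past the fold in each run, with ratios between -2.66 and -2.07, -2.57 and -2.21, and -1.75 and -1.57. At resolution 0.5, Gas6 in this larger macrophage-like cluster was 135 CPM at 2 h. TMM scaling moved log2 ratios by 0.14 in FAP-like, -0.14 in dendritic-like and tenocyte-like, 0.22 in monocyte-like and 0.18 in neutrophil-like cells. Genes past the fold in FAP-like cells went from 773 higher and 974 lower to 1481 and 1981 with a pseudocount of 1 CPM, and without the filter on low counts from 339 to 546 lower in macrophage-like, 303 and 319 to 576 and 605 in endothelial-like, 166 and 165 to 376 and 268 in dendritic-like, and 282 and 407 to 1017 and 1282 in tenocyte-like cells. Outside the 8, ratios that crossed the fold were Pros1 in macrophage-like (-1.01) and Stab1 in FAP-like cells (1.18) with a pseudocount of 1 CPM, and Axl in macrophage-like cells joined with monocyte-like cells (-1.17). Of 188 levels under other choices, 165 stayed within the counting interval of the reported value, as did 99 of 122 shares of UMIs. Shares of cells depend on depth: of 128 values thinned to 2000 UMIs or not thinned, 28 stayed within the interval. No paired analysis was possible because each time had 1 library, and no replicate could be left out. Depth limits Tyro3, Mertk outside macrophage-like and endothelial-like cells, and each class under 50 cells.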
